A study of Mus musculus with 6 samples.

Results

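A list of 8 genes of Schwann cells and myelin was followed in mouse skin: Mbp, Pmp22, Prx and Mag, which encode proteins of the myelin sheath or of its contact with the axon, Egr2, which encodes a transcription factor, and S100b, Cdh19 and Ncam1, which mark the lineage more widely. They were taken by symbol, with earlier results of these data known, and they are 8 of the 54146 gene IDs in each file. Of the 8, 7 averaged 0.1 FPKM or more and were tested, and Egr2 was listed at 0 in all 6. FPKM is the number of fragments scaled by exon length and library size, so it compares levels between genes per length. Total RNA of whole skin was sequenced from 3 mice kept under chronic restraint stress (CRS), in which an animal is repeatedly confined, and from 3 control mice (CON), sampled after 12 weeks. All libraries were made alike from Trizol RNA. For strain, sex, age, body site and the housing of the controls the labels give nothing, and neither group is described as carrying an allele or receiving an agent. The study's title concerns pigment production in stressed skin, and the labels name no question about nerves.

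Schwann cells are the glia of peripheral nerves. In a myelinating Schwann cell the membrane wraps around 1 axon and compacts through adhesive and basic proteins, myelin basic protein and PMP22 among them, while non-myelinating Schwann cells hold bundles of thin axons and keep adhesion molecules such as NCAM and L1. SOX10 holds the lineage and works with EGR2 (KROX20) to switch on the myelin genes. Skin contains both kinds in its dermal nerves, around hair follicles and at sensory endings, as a small share of the tissue. Several of the genes are also used by other skin cells: S100b by melanocytes and adipocytes, Pmp22 by fibroblasts and epithelial cells, and the Mbp gene also by blood cells through its golli transcripts, which a value per gene does not separate. In bulk tissue, fewer cells of a type and less RNA per cell cannot be told apart.

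The bases before the start of 3 of the genes are shown because these genes stood at different places in the results below: Prx reached its highest level in CRS replicate 2, S100b its lowest in that same library, and Mag was the least abundant of the genes tested. The sequences are from RefSeq on build GRCm38.p6, given 5′ to 3′ on the strand of the gene, 250 bases long and ending just before the RefSeq start. That start lay 0, 17 and 10 bases from the start in the GENCODE M21 annotation for Prx, S100b and Mag. For Mag, the RefSeq start nearest to the GENCODE start was used. Capitals mark exact matches, on either strand, to the motifs searched, which were the Sox cores ACAAAG and ACAAT, the Egr core GCGNGGGCG, the E-box CANNTG and the box TATAAA.
Prx, chr7:27499074-27499323, plus strand: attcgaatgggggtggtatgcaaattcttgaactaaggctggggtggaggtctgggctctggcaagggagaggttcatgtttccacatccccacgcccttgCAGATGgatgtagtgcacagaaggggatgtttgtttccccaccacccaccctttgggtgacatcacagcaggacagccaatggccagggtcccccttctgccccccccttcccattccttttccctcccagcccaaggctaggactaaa
S100b, chr10:76253586-76253835, plus strand: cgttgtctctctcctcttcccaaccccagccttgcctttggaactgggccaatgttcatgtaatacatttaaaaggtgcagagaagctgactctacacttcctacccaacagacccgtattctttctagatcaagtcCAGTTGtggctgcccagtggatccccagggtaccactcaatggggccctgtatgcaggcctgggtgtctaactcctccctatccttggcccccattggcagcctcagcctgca
Mag, chr7:30914864-30915113, minus strand: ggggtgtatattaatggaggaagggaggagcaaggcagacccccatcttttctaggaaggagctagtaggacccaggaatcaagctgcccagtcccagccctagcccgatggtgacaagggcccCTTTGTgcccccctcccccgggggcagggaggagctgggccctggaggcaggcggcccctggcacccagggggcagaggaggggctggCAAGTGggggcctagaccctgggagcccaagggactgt

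The Prx window holds 1 E-box, 149 bases before the start, and the S100b window holds 1 E-box, 113 bases before it. Mag has 1 E-box at 38 bases and 1 Sox core at 126 bases, which reads CTTTGT on the strand of the gene. E-box letters occur in 66.22% of the 32851 promoter windows of this length in the same table, and ACAAAG letters in 16.46%, so these matches describe the windows and mark no site. The Egr core, present in 4.697% of windows, has no match in these 3, which says only that its letters are not in them. Of the other genes, Pmp22 is on chromosome 11, Egr2 on chromosome 10, Cdh19 on chromosome 1, Ncam1 on chromosome 9 and Mbp on chromosome 18. Exons of Prx and Ncam1 overlap an antisense gene, Gm15541 over 300 of 5579 exon bases of Prx and Gm11149 over 417 of 8664 exon bases of Ncam1. The sources used here do not say whether the counting used strand, so fragments in these stretches may come from either gene.

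The libraries held 13.3 to 25.7 M fragments, as recovered from the FPKM values. Over all 28389 genes tested, limma gave 0 calls at adjusted p under 0.05 (0%). At unadjusted p under 0.05, 261 genes were higher in CRS (0.919%) and 462 were lower (1.63%). The groups did not overlap for 1941 genes (6.84%). The middle log2 fold change over these genes was −0.20, with 19257 genes below 0, and a gene at 0 on that scale lies 0.20 above the middle of all genes; scaling by median ratios moved this median to −0.0084 and the unadjusted counts to 443 higher and 211 lower. CRS replicate 2 stood apart, with the highest value of the 6 libraries for 29.18% of genes and the lowest for 27.92%. CON replicate 1 had Xist at 2.80 FPKM, against 0.0221 to 0.168 in the others, beside the Y-linked Ddx3y at 8.68 to 32.7 in all 6 libraries, so whether it is RNA of 1 mouse is in doubt. It also had the highest sum of skeletal muscle genes. The separate samples were taken as separate mice, as the study's design text describes 3 per group.

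No difference between CRS and CON skin that exceeded the spread between libraries was found for any of the 7 genes. With limma, 0 of 7 passed adjusted p under 0.05 (adjusted p = 0.9999 for each), 0 of 7 passed unadjusted p under 0.05, and 0 of 7 had groups that did not overlap. The log2 fold changes of log2(FPKM + 0.1), a scale that understates the change of low genes, were above 0 for 4 genes and below 0 for 3. Their median was 0.062, which is 0.26 above that of all genes tested. The SD of log2 values was larger in CRS than in CON for 4 of the 7 genes, against 71.72% of all genes. Mbp, Prx, Mag and Cdh19 were each at their highest in CRS replicate 2, Mag by less than its counting error, while S100b was at its lowest there.

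**Figure D1:**
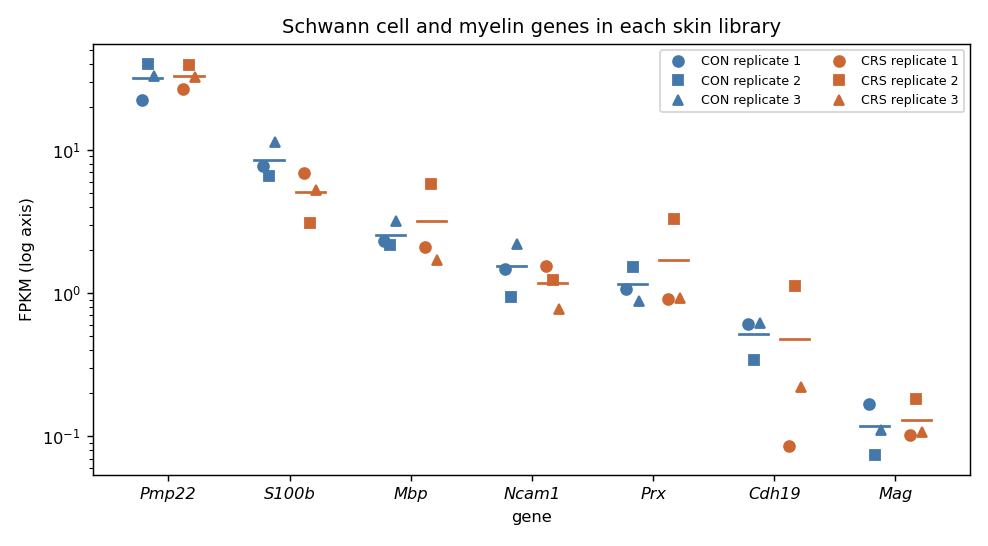
FPKM, on a log axis, of the 7 genes tested in each of the 6 libraries, with CON in blue and CRS in orange, a marker shape for each replicate and a bar at each group mean. CRS replicate 2 (orange squares) is the top point for Mbp, Prx, Cdh19 and Mag and the bottom point for S100b, and no gene has groups that do not overlap.

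By level, the order in CON was Pmp22, S100b, Mbp, Ncam1, Prx, Cdh19 and Mag, with means from 31.8 FPKM down to 0.118 FPKM. In CON, the values of Mbp and Ncam1 overlapped, as did those of Ncam1 and Prx, and the other neighbours in this order were separate in the 3 libraries. In CRS the order was less clear. Mbp in CRS replicate 2 was above S100b in the same library, and Prx was above Ncam1 in CRS replicates 2 and 3. In CRS replicate 1, Cdh19 and Mag, at 7 and 8 fragments, were not separated beyond counting error.

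Among the genes of the sheath, Mbp encodes the cytoplasmic protein that holds the membrane layers of myelin together. It was at 2.31, 2.16 and 3.20 FPKM in CON replicates 1 to 3 and at 2.10, 5.79 and 1.70 FPKM in CRS replicates 1 to 3. The CRS libraries lay on both sides of all CON libraries. CRS replicate 1 was just below the lowest control, and CRS replicate 3 was further below it. CRS replicate 2 was 1.81 times the next highest library. The log2 fold change was 0.13 (SE 0.50, limma unadjusted p = 0.81, exact permutation p = 1.0), with a 95% interval from 0.492-fold to 2.42-fold. Without CRS replicate 2 it was −0.40 (limma unadjusted p = 0.21), so the sign rested on that library.

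Pmp22 encodes a small tetraspan membrane protein of compact myelin that many other cells also make. It was the most abundant of the genes, at 22.3, 40.1 and 33.0 FPKM in controls against 26.5, 39.3 and 32.2 FPKM under restraint, or 31.8 ± 8.96 and 32.7 ± 6.43 FPKM (SD, n = 3 each). The CRS values all lay inside the range of the controls, and its span over the libraries, 1.80 times from lowest to highest, was the narrowest of the 7. Over all libraries the log2 fold change was 0.06 (SE 0.33, limma unadjusted p = 0.86), with an interval from 0.615-fold to 1.77-fold. Its lowest value was in CON replicate 1, the library in which all 10 dermal fibroblast genes were at their lowest and their sum was 295 FPKM, against 929 to 1446 FPKM elsewhere. The part of fibroblasts in the Pmp22 level was not tested.

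Prx encodes periaxin, a scaffold that ties the outer Schwann cell membrane to its cytoskeleton. Its values were 1.07, 1.52 and 0.877 FPKM in controls against 0.904, 3.30 and 0.925 FPKM under restraint. CRS replicates 1 and 3 lay within the controls, and CRS replicate 2 was 2.17 times the next highest library. The log2 fold change was 0.30 (SE 0.58, limma unadjusted p = 0.61, interval 0.492-fold to 3.10-fold) and −0.28 without CRS replicate 2 (limma unadjusted p = 0.48). Prx moved with Mbp more closely than any other pair of the genes did, at a root mean square distance of 0.40 between their centred log2 profiles.

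Mag encodes the adhesion protein of the myelin membrane that faces the axon. Its level was low in every library, at 0.169, 0.0739 and 0.111 FPKM in controls against 0.102, 0.181 and 0.107 FPKM under restraint. These values stood for only 6 to 19 fragments. The counting intervals were wide: 6 fragments in CON replicate 2 allowed 0.0271 to 0.161 FPKM and 19 fragments in CRS replicate 2 allowed 0.109 to 0.283 FPKM (exact Poisson, counting error only). The log2 fold change was 0.09 (SE 0.55, limma unadjusted p = 0.88), and no difference of Mag was detected. The interval ran from 0.444-fold to 2.54-fold of FPKM + 0.1, and the added 0.1 is about the level of Mag itself. With 0.01 added in its place the log2 fold change was 0.16.

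Egr2, the regulator of the list, was listed at 0 in all 6 libraries and gave no comparison. The same holds for 1318 of the 21906 protein-coding IDs in the files. Among them are Ado, the gene beside Egr2, and Sf1 and Men1, which most cells use, so a listed 0 here is not a measured absence and nothing is said about Egr2 transcription. The partners and relatives of Egr2 were measured. Nab2, a corepressor that binds EGR proteins, was at 16.5, 12.1 and 16.4 FPKM in controls against 7.20, 16.8 and 7.35 FPKM under restraint, with a log2 fold change of −0.62 (SE 0.39, limma unadjusted p = 0.15). Egr1, an immediate early gene of the same family, was at 19.9, 15.9 and 21.5 FPKM in controls against 13.4, 27.6 and 11.2 FPKM under restraint (log2 fold change −0.24, SE 0.39, limma unadjusted p = 0.56). For both genes CRS replicates 1 and 3 were below every control and CRS replicate 2 was above them.

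Among the lineage genes, S100b, which encodes a calcium-binding protein used as a Schwann cell marker, had the lowest p of the 7. It was at 7.70, 6.52 and 11.4 FPKM in controls against 6.90, 3.06 and 5.24 FPKM under restraint, or 8.54 ± 2.55 and 5.07 ± 1.92 FPKM (SD, n = 3 each). CRS replicates 2 and 3 were below all controls, and CRS replicate 1 was above 1 control, so CRS and CON values overlapped. In the fit over all libraries S100b had a log2 fold change of −0.78 (SE 0.40, limma unadjusted p = 0.085, exact permutation p = 0.2 where 0.1 is the smallest this design allows), with an interval from 0.311-fold to 1.10-fold. Without CRS replicate 2 the value was −0.46 (limma unadjusted p = 0.17), and without CRS replicate 1 it was −1.03 (limma unadjusted p = 0.048, adjusted p = 0.93 with limma). With median-ratio scaling of all libraries it was −0.56, and with quantile normalization −0.57 (limma unadjusted p = 0.27 for each). Relative to the median of all genes, the S100b value of the main fit was −0.58. Of 10 melanocyte genes, 9 had a log2 fold change below 0, against 19257 of all 28389 genes, with a median of −0.58 against −0.20. At unadjusted p under 0.05 with limma, 2 were lower, against 1.63% of all genes. For 4 of the 10, each CRS library was below each control, against 1474 of all 28389 genes. With 0 of the 10 at adjusted p under 0.05 (limma), their summed level was 283 to 321 FPKM in CON and 194 to 239 FPKM in CRS, with none of the 10 at 0. Adipocyte genes summed to 468 to 837 FPKM in CON and 398 to 787 FPKM in CRS. The part of either cell type in the S100b level was not tested.

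Cdh19 encodes a cadherin of Schwann cells and their precursors. It varied most of the 7, by 13.1 times between libraries, at 0.606, 0.340 and 0.615 FPKM in controls against 0.0850, 1.12 and 0.222 FPKM under restraint. CRS replicates 1 and 3 were below all controls and CRS replicate 2 was above them. The lowest value stood for 7 fragments (0.0342 to 0.175 FPKM, exact Poisson) and the highest for 123 (0.928 to 1.33 FPKM), so these libraries differed beyond counting error. Its log2 fold change was −0.54 (SE 0.76, limma unadjusted p = 0.50, interval 0.205-fold to 2.31-fold). It was −1.31 without CRS replicate 2 (unadjusted p = 0.047, adjusted p = 0.29 with limma), a fit in which 14.6% of all genes were lower at that threshold, and 0.049 without CRS replicate 1.

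Ncam1 encodes a cell adhesion molecule that non-myelinating Schwann cells keep and that nerve, muscle and hair follicle cells also carry. Its values were 1.48, 0.944 and 2.21 FPKM in controls against 1.55, 1.23 and 0.779 FPKM under restraint. Only CRS replicate 3 lay below the controls. A log2 fold change of −0.33 was fitted (SE 0.49, limma unadjusted p = 0.52, interval 0.367-fold to 1.73-fold). Unlike Mbp, Prx and Cdh19, Ncam1 in CRS replicate 2 lay within the range of the controls.

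**Figure D2:**
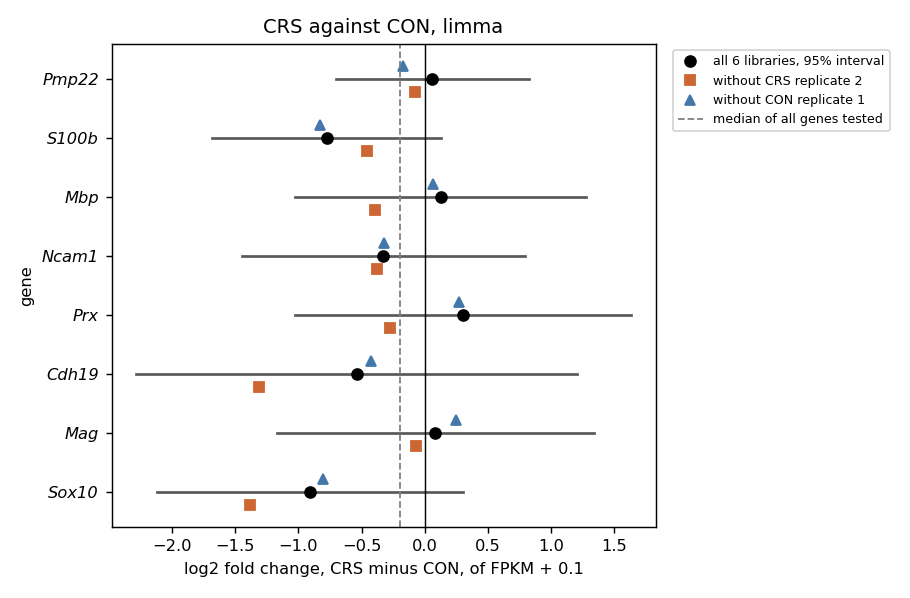
Log2 fold change of FPKM + 0.1, CRS minus CON, for the 7 genes and for Sox10, from limma. Black points with bars give all 6 libraries with the 95% interval, squares leave out CRS replicate 2, triangles leave out CON replicate 1, and the dashed line is the median of all genes tested at −0.20. Every interval crosses 0, and without CRS replicate 2 all 8 values are below 0.

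Of the other genes of the pathway, 0 passed the adjusted threshold. Sox10, the lineage transcription factor, was at 2.05, 1.36 and 2.00 FPKM in controls against 0.665, 1.85 and 0.572 FPKM under restraint. CRS replicates 1 and 3 were below every control, and CRS replicate 2 was among them. Its log2 fold change was −0.91 (SE 0.53, limma unadjusted p = 0.12), and −1.39 without CRS replicate 2 (limma unadjusted p = 0.0083, adjusted p = 0.19). In the fit without that library, 14.6% of all genes were lower at unadjusted p under 0.05. Melanocytes also use Sox10.

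Of 16 further myelin sheath genes tested, 8 had a log2 fold change above 0 and 8 below, with 0 at unadjusted p under 0.05 and a median of −0.0028. The lowest p-values were those of Mal, a lipid raft protein (0.71, limma unadjusted p = 0.16), Fa2h, the enzyme that hydroxylates sphingolipid fatty acids (0.55, limma unadjusted p = 0.19), and Cadm4, an adhesion molecule toward the axon (0.41, limma unadjusted p = 0.27). Skin epithelia express these genes too, and Fa2h, at 15.7 to 51.7 FPKM, was far above Mbp. Of 13 further lineage genes, 3 were above 0 and 10 below, with a median of −0.14, near the −0.20 of all genes, and 0 at unadjusted p under 0.05. Besides Sox10, these were led by Gfap, Gpm6b and Ngfr, the low-affinity neurotrophin receptor of non-myelinating Schwann cells. Gfap stood for only 13, 5 and 15 fragments in controls and 1, 21 and 2 under restraint, at levels near the added 0.1 FPKM. Ngfr was at 2.72, 2.88 and 2.23 FPKM in controls against 0.920, 4.84 and 1.24 FPKM under restraint (log2 fold change −0.51, limma unadjusted p = 0.42), and the other lowest p-values were 0.34 for Gfap (−0.66) and 0.37 for Gpm6b (−0.40).

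Of 15 regulators of Schwann cell differentiation, 3 were above 0 and 12 below, with a median of −0.16, which is 0.040 above that of all genes, and 0 at unadjusted p under 0.05. Id2, an inhibitor of differentiation, was at 35.7, 38.6 and 58.2 FPKM in controls against 30.8, 18.6 and 28.0 FPKM under restraint, 1 of 15 genes here whose groups did not overlap, a share near the 6.84% of all genes (log2 fold change −0.77, SE 0.34, limma unadjusted p = 0.052). Pou3f1, which encodes the OCT6 factor that precedes Egr2 in myelination and is also made by keratinocytes, was at 15.3, 8.80 and 18.5 FPKM in controls against 9.51, 8.10 and 4.97 FPKM under restraint (−0.89, SE 0.39, limma unadjusted p = 0.052). CRS replicates 2 and 3 of Pou3f1 were below all controls, and CRS replicate 1 was within them. Jun, which is raised in injured nerve, had a log2 fold change of −0.65 (limma unadjusted p = 0.20).

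Of the 9 immediate early genes tested, 3 were above 0 and 6 below. Fos was higher in each CRS library than in each control (0.51, limma unadjusted p = 0.13) and Ier2 lower in each (−0.37, limma unadjusted p = 0.22), with 0 at unadjusted p under 0.05. Of 15 axon and sensory neuron genes, 8 reached the level to be tested. Of these, 3 were above 0 and 5 below, with 0 at unadjusted p under 0.05. Tubb3 was at 6.80, 15.0 and 20.1 FPKM in controls against 11.9, 23.8 and 16.4 FPKM under restraint (0.39, limma unadjusted p = 0.42). The other axon genes were far lower in level, among them Gap43 (−0.70, limma unadjusted p = 0.30). Uchl1 and Prph were lower, and Piezo2 higher, in each CRS library than in each control, all 3 at under 1 FPKM. Such groups without overlap were found for 6.84% of all genes, and neither list was tested against that share.

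**Figure D3:**
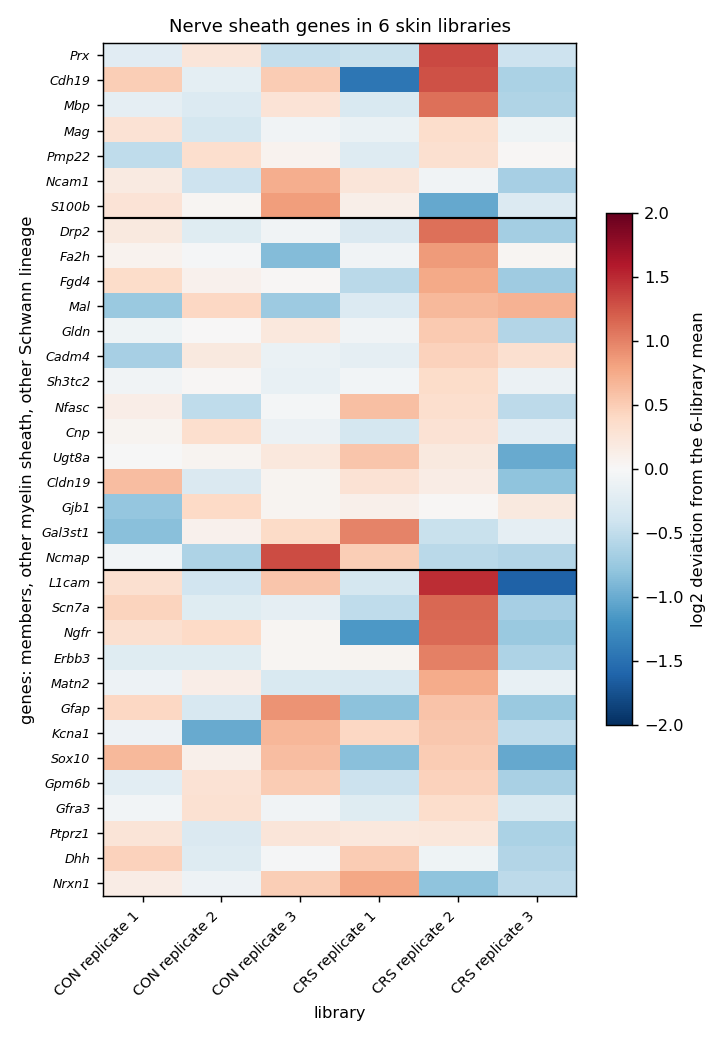
Log2 deviation of each gene from its mean over the 6 libraries, for the 7 genes tested (top), 14 of the 16 other myelin sheath genes (middle) and 13 other Schwann lineage genes (bottom), ordered within each block by the value in CRS replicate 2. Red is above and blue below the mean, with the scale ending at −2 and 2. Most rows are red in CRS replicate 2 and blue in CRS replicates 1 or 3, whereas S100b is blue in CRS replicate 2.

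A split of the CRS group was seen in many of these genes and in the libraries as a whole. CRS replicate 2 was the highest of the 6 libraries for 4 of the 7 genes, for 8 of 16 sheath genes, for 6 of 13 lineage genes and for 10 of 15 regulators, against 29.18% of all genes. CRS replicate 3 was the lowest for 2 of the 7 genes, for 7 of 16 sheath genes and 8 of 13 lineage genes, against 25.1% of all genes. A larger SD of log2 values in CRS than in CON was found for 11 of 16 sheath genes (68.75%) and 12 of 13 lineage genes (92.31%). The share was 57.14% of the 7 genes and 71.72% of all genes. For the 4 of the 7 genes the SDs were 0.29 in CON and 0.92 in CRS for Mbp, 0.37 and 1.01 for Prx, 0.41 and 0.58 for S100b, and 0.40 and 1.40 for Cdh19. Without CRS replicate 2, 7 of 7 genes were below 0, with 1 (Cdh19) at unadjusted p under 0.05, where 14.6% of all genes were lower. In that same fit 10 of 16 sheath, 12 of 13 lineage and 14 of 15 regulator genes were below 0, as were 17388 of all 28389 genes, and without CRS replicate 3 in its place 3 of 7, 5 of 16, 6 of 13 and 7 of 15 were, beside 16210 of all genes.

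The deviation of a library depended on exon length over all genes, and that moved with these results. In CRS replicate 2 the median log2 deviation from the 6-library mean, over genes of at least 1 FPKM, rose from −1.18 for exon lengths up to 1000 nt to 0.77 above 8000 nt. In CRS replicate 1 it fell from 0.76 to −0.43 over the same lengths, and in CRS replicate 3 from 0.19 to −0.67. Mbp has 8469 nt of exon, Prx 5579 nt, Cdh19 4280 nt and S100b 1484 nt. In CRS replicate 2, Mbp deviated by 1.11 where genes of like length had a median of 0.77, and Prx by 1.31 and Cdh19 by 1.28 where that median was 0.56. S100b deviated by −1.02, against a median of −0.34 for its length. These 4 genes, each at an extreme in that library, thus went the way of their length class there, and further. Mag, also highest in CRS replicate 2, deviated less than its class, by 0.35 against 0.56. Pmp22 deviated by 0.32 against 0.19. Ncam1, the longest at 8664 nt, did not rise with its class, at −0.06 against 0.77. What gave rise to the trend was not tested.

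**Figure D4:**
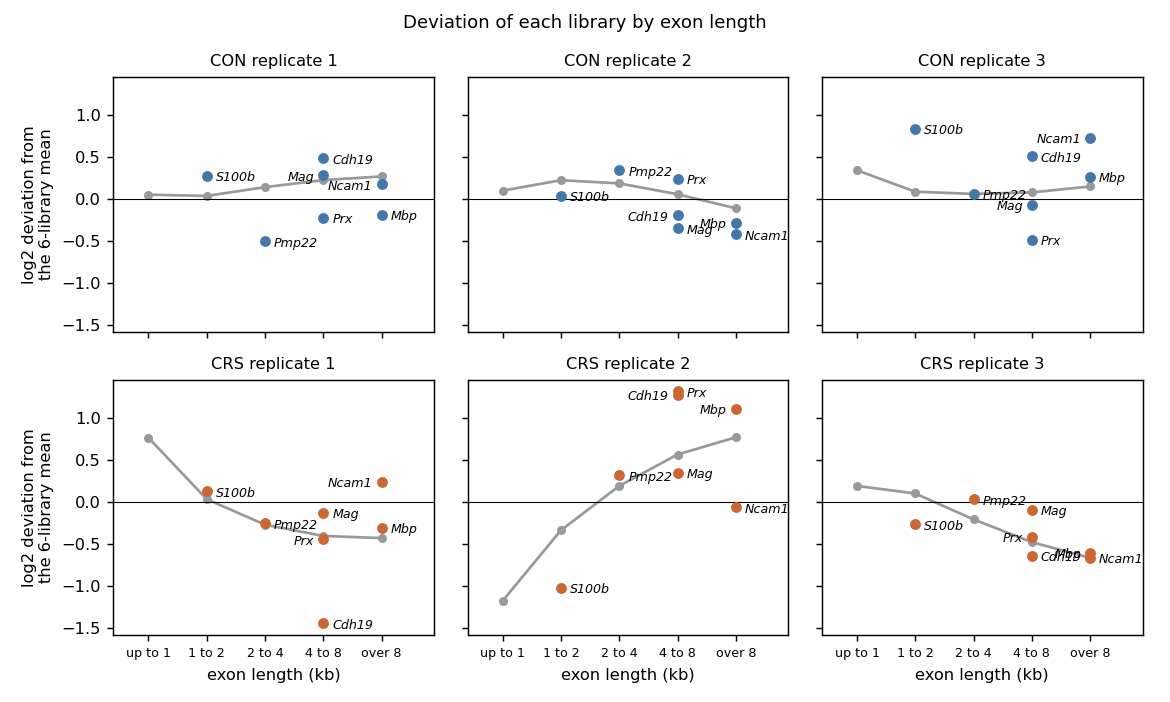
Log2 deviation from the 6-library mean against exon length in kilobases, 1 panel per library. Grey points and line are medians over all genes of at least 1 FPKM in each length class, and coloured points are the 7 genes. In CRS replicate 2 the grey line rises from −1.18 to 0.77, with Mbp, Prx, Cdh19 and Pmp22 above it and S100b, Mag and Ncam1 below it.

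After a smooth trend over exon length was subtracted from each library, an alternative chosen after seeing the data, CRS replicate 2 was the highest library for 4 of the 7 genes (Mbp, Prx, Cdh19 and Pmp22, with Mag no longer among them), for 6 of 16 sheath genes and for 4 of 13 lineage genes, against 25.27% of all genes. The log2 fold changes were then 0.34 for Mbp, 0.27 for Pmp22, 0.53 for Prx, 0.32 for Mag, −0.60 for S100b, −0.31 for Cdh19 and −0.11 for Ncam1, with 0 of 7 at unadjusted p under 0.05. The corrected deviation of Cdh19 remained −1.07 in CRS replicate 1 and 0.87 in CRS replicate 2.

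Skeletal muscle, whose intramuscular nerves also hold Schwann cells, differed between the libraries as well. The summed level of 10 muscle fibre genes was 12003, 1368 and 2365 FPKM in the CON replicates and 419, 2734 and 745 FPKM in the CRS replicates, with none of the 10 at 0. Within CRS the order of the libraries was the same as for Cdh19, with replicate 2 highest and replicate 1 lowest. In CON replicate 1, which had the highest muscle sum, Mbp, Prx and Cdh19 were within the range of the other controls. For Cdh19, CON replicates 1 and 3 (0.606 and 0.615 FPKM) were not separated beyond counting error. Their exact Poisson intervals were 0.448 to 0.801 and 0.429 to 0.856 FPKM, so the order of these libraries is not resolved. With the muscle level as a covariate, the log2 fold change of Cdh19 was 0.24 and that of S100b was −1.05 (limma unadjusted p = 0.026, adjusted p = 0.92). Of 10 endothelial genes, 9 were below 0, against 19257 of all 28389 genes, with a median of −0.74 against −0.20. These summed to 25.6 to 57.6 FPKM in CON and 15.5 to 41.9 FPKM in CRS over the 10. The part of muscle or vessels in the levels of the nerve genes was not tested.

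Ratios within a library remove its scale, though not the trend over length. For a pair chosen after the values were seen, Mbp over S100b was 0.30, 0.33 and 0.28 in CON and 0.30, 1.89 and 0.32 in CRS, so 5 libraries lay close together and CRS replicate 2 stood apart. The ratio of Prx to Mbp was 0.464, 0.705 and 0.274 in CON and 0.430, 0.569 and 0.545 in CRS, with every CRS value inside the control range.

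Over the 6 libraries, the genes whose centred log2 profile lay nearest to each member were found among 11418 or 11419 genes of at least 1 FPKM. Numb and Pag1 were nearest to Mbp (root mean square distances 0.050 and 0.063), and Pinx1 and Jkamp to S100b (0.096 and 0.12). Zdhhc13 and Atp6ap2 were nearest to Pmp22 (0.055 and 0.059), Coro1c and Xdh to Prx (0.10 and 0.12), Trim47 and Acss2 to Mag (0.12 each), and Ice1 and Urb1 to Cdh19 (0.18 and 0.20). Ahi1 was the second nearest to Ncam1 (0.092). Between members, Mbp and Prx lay at 0.40, Pmp22 and Mag at 0.44 and S100b and Cdh19 at 1.16. The nearest genes are the closest of 11418 or 11419, whereas each member has only a few others in the list. The distances between members therefore cannot be compared with those of the nearest genes. Outside the list, Cdh19 lay at 0.45 from Sox10. These distances are a description over 6 libraries that share the trends in length given above.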

How the data were processed

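The deposited values are FPKM per Ensembl gene ID in 1 file per library, made by the authors; the submitters' processing notes name HISAT2 and build GRCm39. For the counting tool, annotation and versions, nothing is stated there. Each library was made from 1 µg of total RNA, per the labels' protocols. Symbols and exon lengths were taken from GENCODE M21 (GRCm38), which held 54079 of 54146 IDs. FPKM times exon length fell on whole fragments (within 0.05, up to 100 fragments) for 98.1% to 98.3% of values per library, which gave depths of 13.3 to 25.7 M. For Mbp the step was slightly off, so its exon length may differ. Since these lengths come from an older build than the notes name, the coordinates printed are those of the reference tables only.

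Values entered as log2(FPKM + 0.1). Genes of mean at least 0.1 FPKM were tested with limma 3.58.1 (R 4.3.3), trended and two-sided, p-values being adjusted by Benjamini-Hochberg over every gene tested, beside an exact two-sided permutation test per gene (smallest p 0.1). The scripts were tested on simulated data. Beside the listed genes, the text names Sox10, Egr1, up to 4 genes of lowest p per neighbouring list, and the 2 nearest profiles per gene. Piezo2, Xist, Ddx3y, Ado, Sf1 and Men1 were added after their values were seen. A few genes under these rules are not reported here. The members and lists were chosen with earlier results of these data known. The alternatives were other pseudocounts, filters, scalings and variance models, voom on recovered fragments, a muscle covariate, a replicate block and libraries left out; the length correction (lowess, span 0.3) and list counts with libraries left out were added after seeing the data. Same-numbered CON and CRS libraries did not deviate together. Figures used matplotlib.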

Additional observations from a re-analysis of the deposited data

How the results depend on the processing

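No gene was called at adjusted p under 0.05 in any of the 20 alternatives, and S100b and Ncam1 stayed below 0 in all of them (−1.05 to −0.46 and −0.72 to −0.043). Signs turned for the other 5. With array weights, Mbp was −0.48, Pmp22 −0.0014, Prx −0.23 and Mag −0.014. With both CON replicate 1 and CRS replicate 2 left out, Mbp was −0.46, Pmp22 −0.32 and Prx −0.31. Pmp22 was −0.025 on totals without mitochondrial and muscle genes, and Cdh19 0.24 with the skeletal muscle covariate. Leaving out 1 library at a time gave −0.40 to 0.46 for Mbp, −0.17 to 0.25 for Pmp22, −0.28 to 0.60 for Prx, −0.067 to 0.25 for Mag, −1.31 to 0.049 for Cdh19, −1.03 to −0.46 for S100b and −0.62 to −0.043 for Ncam1. The value below 0 came without CRS replicate 2 for Mbp and Prx, without that library or CON replicate 1 for Pmp22, and without that library or CON replicate 2 for Mag; the value above 0 for Cdh19 came without CRS replicate 1. The number of members at unadjusted p under 0.05 went from 0 to 1 with array weights and with the muscle covariate (S100b in both), and was 0 to 1 with 1 library left out. The cause of these turns was not tested. A filter at a mean of 1 FPKM leaves out Mag and Cdh19.

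Counts over all genes at unadjusted p under 0.05 were 261 higher and 462 lower. They were 443 and 211 with median ratios, 490 and 322 with quantiles, 756 and 332 after length correction, 400 and 990 with the muscle covariate, 1109 and 6525 with array weights, 768 and 3081 with both libraries left out, and 133 and 323 with the higher filter. With 1 library left out they ran from 158 to 707 higher and from 181 to 4148 lower. Without CRS replicate 3, 5 of 16 sheath and 6 of 13 lineage genes were lower. The replicate block, with numbers that did not pair the libraries (correlations of deviations −0.12, 0.062 and 0.087), left Mbp at 0.13 (limma unadjusted p = 0.83) and S100b at −0.78 (limma unadjusted p = 0.11) and called 0 genes. Of the 7 genes, Mag, at 6 to 19 fragments, and Cdh19, at 7 to 123, are the most limited by depth.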
